A study of Mus musculus with 12 samples.

Results

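The genes described here are the parts of the Notch pathway that meet at the cell surface, with the DNA-binding protein that receives the signal in the nucleus. They are the receptors Notch1, Notch2 and Notch3, the ligands Dll1, Dll3, Dll4, Jag1, Jag2 and Dner, and Rbpj, 10 of the 24421 genes listed in the deposited table. They were chosen by name, for their place in the pathway, and all 10 passed the filter on low values. RNA came from cells expressing green fluorescent protein (GFP) that were sorted from dissociated cerebellum of mice with the genotype Aldh1l1-GFP. The ages were P1, P7, P14 and P28, with 3 libraries at each and 12 in all. All groups carried the same reporter, and age is the only difference between them that the labels give. The paper's methods describe sorted cells of both sexes on a C57/BL6J background. In this transgene the promoter of Aldh1l1, a folate-metabolising enzyme used as an astrocyte marker, drives GFP, so that the sort collects any cell in which that promoter is or recently was active. The labels do not say that the libraries of an age came from separate animals, so the p-values below measure only the spread between these libraries, which may be technical.

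Notch receptors are single-pass membrane proteins that are activated by ligands on a neighbouring cell. Binding of a Delta-like or Jagged ligand, followed by its endocytosis, exposes the receptor to cutting by ADAM proteases and then by gamma-secretase. The freed intracellular domain enters the nucleus, joins Rbpj and a Mastermind coactivator, and switches on genes of the Hes and Hey families. In the developing brain this signalling is known for keeping neural progenitors from becoming neurons and for promoting glial fate. In the cerebellum, Notch1, Notch2, Rbpj and the ligand Dner are known for their part in the formation of Bergmann glia, the radial astrocytes whose cell bodies lie beside those of Purkinje cells.

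Values are normalised counts, the number of reads counted on a gene divided by 1 size factor per library, and are given as mean ± SD of 3 libraries. Undoing that division gave back between 6399499 and 14733985 reads on genes per library, with the deepest libraries at P1 (median 12777850) and the shallowest library at P7. Differences between ages were tested with limma on log2(value + 1) over 15464 genes, and a gene was called where its Benjamini-Hochberg adjusted p over all of those genes was under 0.05. A log2 fold change is the later age minus the earlier one on that scale, and it understates the change of genes with few reads. All 8 astrocyte markers examined were detected at every age. Their summed normalised count was 56282 to 70385 at P1, 27542 to 50996 at P7 and 330617 to 387934 at P28. The P14 libraries had astrocyte sums of 163522, 177714 and 144191. Markers of myelinating oligodendrocytes were present in the same sorted samples. Their summed counts ranged, in order of age, from 631 to 1488, 19605 to 30745, 295158 to 355736 and 92561 to 131835. In each P14 library the oligodendrocyte sum was above the astrocyte sum, whereas in each library of the other ages it was below. In bulk samples, fewer cells of a type and less RNA per cell cannot be told apart, and this holds for every change described below.

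The members did not move together. The 3 receptors fell from P1 to P7 and had higher means again at later ages (except that Notch3 was 0.019 lower at P14 than at P7 on the log2 scale when libraries were scaled by their totals), Dll1 and Dll3 were almost lost between P7 and P14, Dner fell early and stayed low, Rbpj was highest at P7, and Dll4, Jag1 and Jag2 did not pass the test in any comparison. Over the 4 ages, 7 of the 10 members changed by an F test, against 43.8% of all genes tested. From P1 to P7, 0 members rose and 4 fell, where 3.47% of all genes rose and 4.24% fell. From P7 to P14, 0 rose and 3 fell, beside 10.8% and 10.0% of all genes. From P14 to P28, 1 rose and 0 fell, beside 5.68% and 8.76%. Over the whole interval from P1 to P28, 0 rose and 5 fell, beside 14.6% and 20.0%. The median log2 fold changes of the members in these comparisons were -0.88, -0.19, -0.36 and -1.09, and those of all genes tested were 0.037, -0.086, -0.12 and -0.24. Scaling the libraries by their totals alone moved the medians of all genes to 0.095, -0.34, -0.35 and -0.66, and the share of rises among called genes from 45.0%, 51.9%, 39.3% and 42.3% to 51.0%, 32.9%, 19.1% and 21.0%. The last comparison shares its libraries with the first and the third, and consecutive steps share the age between them.

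**Figure D1:**
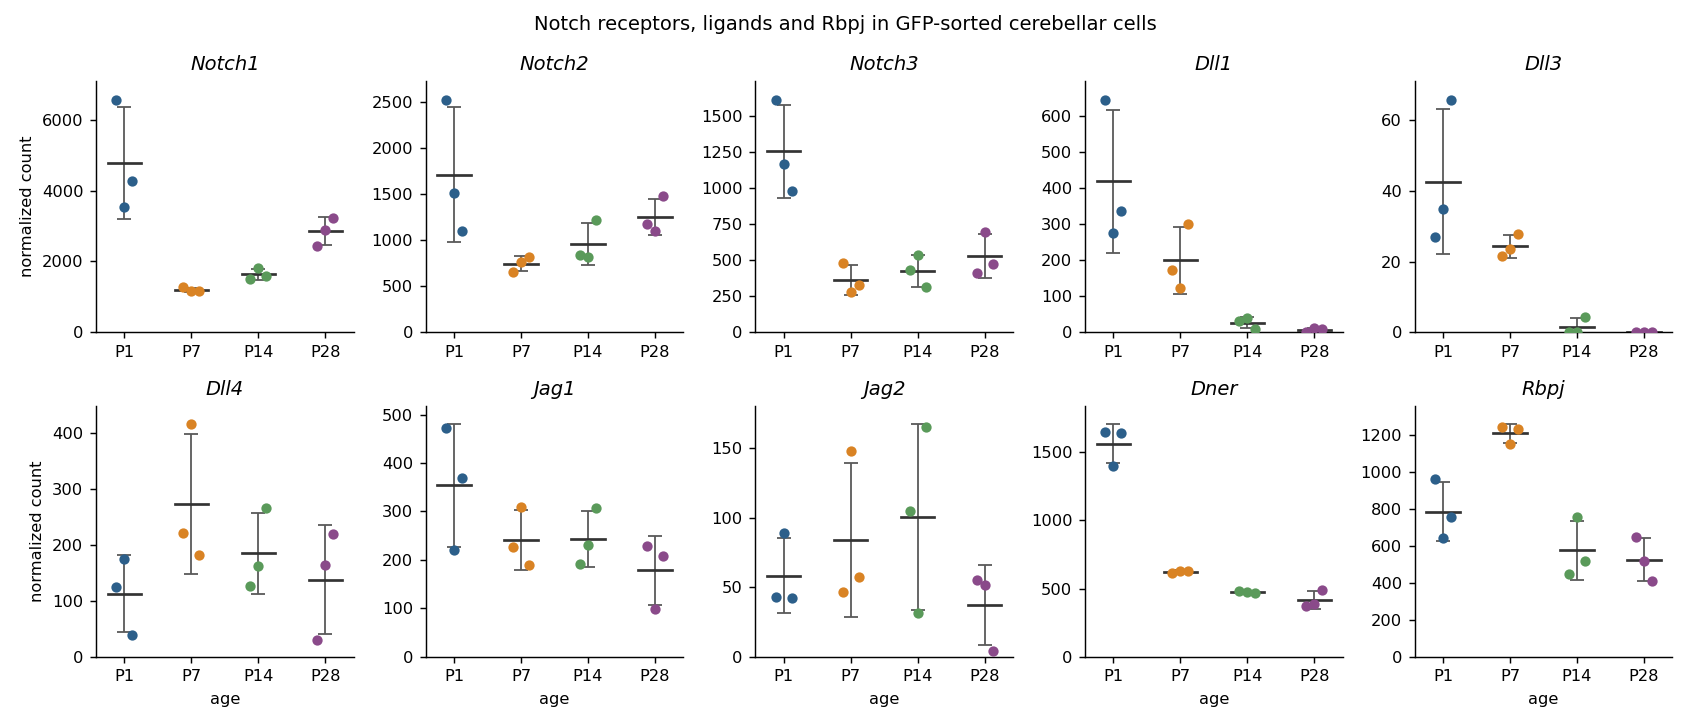
Normalised count (vertical axis, from 0, a separate scale for each gene) of the 10 members by postnatal age (horizontal axis). Points are libraries, horizontal lines the mean of 3 libraries and error bars the SD, and the Notch1 points at P1 all lie above the Notch1 points of the other 3 ages while the Dll3 points at P28 are all at 0.

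Notch1 (chr2:26457903-26516663, minus strand, mm10) was the receptor with the widest swing. Its normalised counts were 6568, 3530 and 4270 in the 3 libraries of P1, 1269, 1165 and 1167 at P7, 1492, 1798 and 1595 at P14, and 2432, 2887 and 3228 at P28. The ages formed 4 separate ranges, with every P1 library above every P28 library, every P28 library above every P14 library and every P14 library above every P7 library. From P1 to P7 Notch1 fell 3.85-fold (log2 fold change -1.95, SE 0.20, adjusted p = 7.44e-05). The following difference, from a mean of 1200 ± 59.5 to 1629 ± 156, was 0.44 (SE 0.20) and did not pass (adjusted p = 0.154), whereas it was called when only P7 and P14 were fitted (adjusted p = 0.0338). From P14 to P28 Notch1 rose 1.74-fold (0.80, SE 0.20, adjusted p = 0.0182), and at P28 it was 1.63-fold below P1 (-0.71, adjusted p = 0.0147). Both of these calls were lost in some alternatives. The rise had an adjusted p of 0.0647 when libraries were scaled by their totals, of 0.0656 without the first P14 library and of 0.0585 without the third. The lower level at P28 than at P1 had an adjusted p of 0.0803 without the first P1 library, the highest of all, and 0.0647 when only these ages were fitted, and without the first P28 library it lay just past the threshold.

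Notch2 (chr3:98013527-98150361, plus strand), the receptor that shares most of its domain structure with Notch1, was measured at 2530, 1514 and 1103 in the P1 libraries, 652, 764 and 817 at P7, 840, 816 and 1224 at P14, and 1178, 1103 and 1479 at P28. The P7 libraries all lay below the P1 libraries, but later the ranges overlapped those of their neighbours. Notch2 fell 2.18-fold from P1 to P7 (log2 fold change -1.12, SE 0.27, adjusted p = 0.0185). This call depended on single libraries, with an adjusted p of 0.0941 without the first P1 library and 0.0772 or 0.0542 without the first or the second P7 library. Its later differences were 0.35 and 0.40 and did not pass (adjusted p = 0.42 and 0.344), and at P28 it lay 0.38 below P1 on the log2 scale (adjusted p = 0.292). With libraries scaled by their totals this last difference was called (-0.81, adjusted p = 0.0215).

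Notch3 (chr17:32120820-32166852, minus strand), a receptor best known from the mural cells of blood vessels and also present in glia, had 1616, 1170 and 981 normalised counts at P1, 483, 277 and 329 at P7, 432, 534 and 313 at P14, and 411, 698 and 475 at P28. All P1 libraries were above all later libraries, and the later ages overlapped. Notch3 fell 3.47-fold from P1 to P7 (-1.80, SE 0.30, adjusted p = 0.00186) and was still 2.39-fold below P1 at P28 (-1.25, adjusted p = 0.00471). Its differences of 0.24 and 0.30 in the later steps did not pass (adjusted p = 0.646 and 0.525). The remaining receptor, Notch4, which is known from endothelium, lay between 30.7 and 310 over all libraries and was not called in any comparison, with adjusted p values from 0.224 to 0.993.

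**Figure D2:**
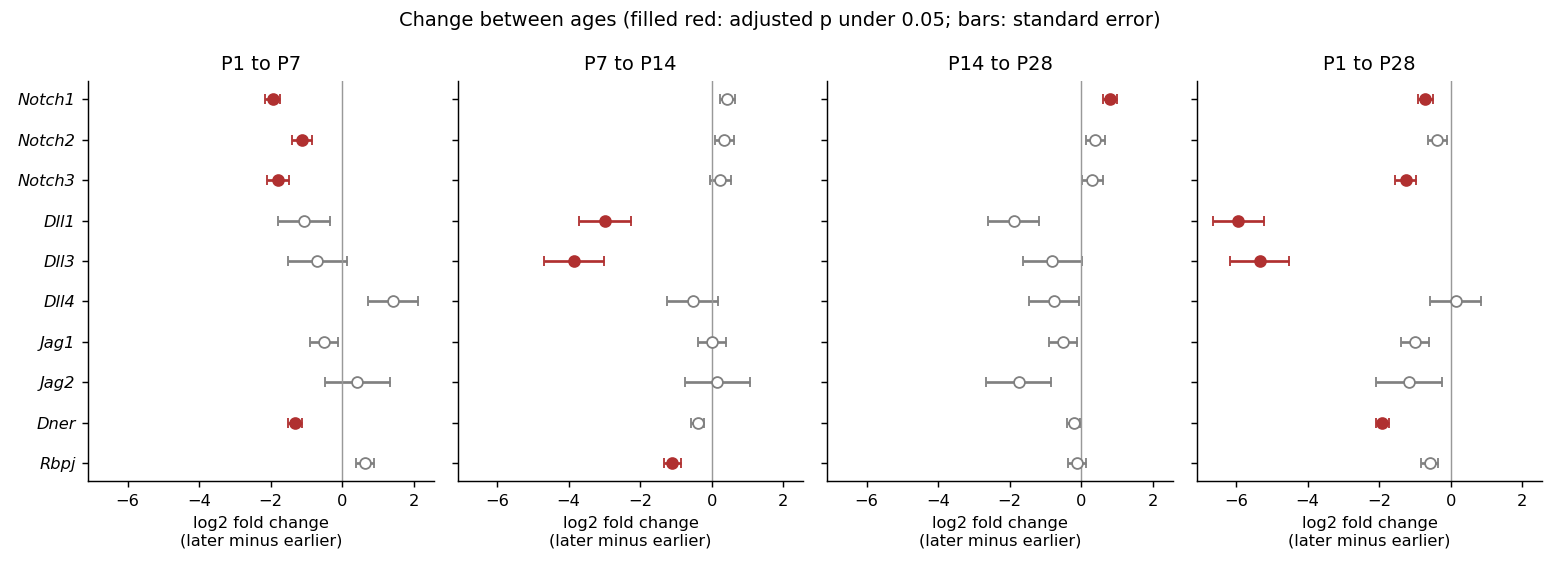
Log2 fold change of each member (horizontal axis, later minus earlier age) in the 4 comparisons, with bars for the standard error. Filled red points mark an adjusted p under 0.05, and they stand below 0 except for Notch1 from P14 to P28 at 0.80.

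Dll1 and Dll3 were the members that came closest to disappearing. Dll1 (chr17:15367354-15376872, minus strand) encodes an activating ligand that committed neuronal progenitors present to their neighbours, and Dll3 (chr7:28293553-28302238, minus strand) encodes a divergent Delta-like protein that is largely retained inside the cell and does not activate receptors on neighbouring cells. Each has an annotated RefSeq start in GRCm38.p6 whose promoter window, from 250 bases before to 50 bases after the start, holds the E-box CAGCTG, a motif known to be bound by basic helix-loop-helix proteins. The motif reads the same on both strands and occurs in 16.3% of the 32851 promoter windows of the genome, and it occurs in 3 of the 12 windows of the 10 members, those of Dll1, Dll3 and Jag1. The windows of Dll1 and Dll3 are printed because their RNA moved alike with age, with the motif in capitals, 132 bases before the start in Dll1 and 7 bases before it in Dll3. Dll1 has another annotated start, at whose window no CAGCTG was found. Jag1, which also holds the motif, did not pass the test in any comparison. A link between the motif and the RNA values was not tested.
Dll1, chr17:15376883-15377182, minus strand: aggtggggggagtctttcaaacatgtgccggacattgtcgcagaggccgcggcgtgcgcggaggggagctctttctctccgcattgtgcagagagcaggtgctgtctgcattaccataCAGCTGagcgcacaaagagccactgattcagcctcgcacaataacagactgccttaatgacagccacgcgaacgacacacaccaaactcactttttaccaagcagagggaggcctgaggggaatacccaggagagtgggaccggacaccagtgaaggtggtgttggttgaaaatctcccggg
Dll3, chr7:28301736-28302035, minus strand: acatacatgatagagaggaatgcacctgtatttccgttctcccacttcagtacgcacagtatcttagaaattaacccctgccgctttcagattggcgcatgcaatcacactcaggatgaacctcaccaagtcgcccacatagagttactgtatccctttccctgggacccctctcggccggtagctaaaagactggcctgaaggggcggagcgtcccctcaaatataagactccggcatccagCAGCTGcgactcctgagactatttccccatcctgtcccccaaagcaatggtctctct

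Dll1 had normalised counts of 646, 275 and 338 at P1, 173, 123 and 302 at P7, 30.7, 38.1 and 9.77 at P14, and 1.46, 10.6 and 8.11 at P28. The third P7 library lay within the range of P1, and all P7 libraries lay above all P14 libraries. From P7 to P14 Dll1 fell 7.87-fold (log2 fold change -2.98, SE 0.72, adjusted p = 0.00884), and this call was lost without the third P7 library (adjusted p = 0.0575). The differences from P1 to P7 (-1.07, adjusted p = 0.501) and from P14 to P28 (-1.89, adjusted p = 0.0954) did not pass, the latter becoming a call by DESeq2 (adjusted p = 0.0275) and without the second P28 library (adjusted p = 0.0474). Over the whole interval Dll1 fell 61.5-fold (-5.94, SE 0.72, adjusted p = 2.69e-05). Its P28 value rests on 16 reads in the 3 libraries together, after 1881 at P1, 700 at P7 and 74 at P14.

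Dll3 was low at every age, with 27.1, 35.0 and 65.9 normalised counts at P1 and 21.5, 23.6 and 27.9 at P7. It had no read in the first 2 libraries of P14, 4.34 normalised counts in the third, and no read in any library of P28. The P1 and P7 ranges met, with the third P7 library just above the lowest P1 library, while the 2 later ages lay wholly below both. In reads, the sums over 3 libraries were 180, 81, 4 and 0 in order of age. The fall from P7 to P14 was called (-3.85, SE 0.83, adjusted p = 0.00408), and it remained called at pseudocounts of 0.1 (-6.10, adjusted p = 0.0106) and 10 (-1.60, adjusted p = 0.00598), so that its size depends on that choice while its direction does not. At P28 Dll3 was at least 10.7-fold lower than at P1, taking 3 reads per library as the most that a count of 0 allows at 95% confidence. That limit covers counting error only.

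Markers of dividing cells and of neuronal precursors moved across the same ages. The summed count of 6 proliferation genes, among them Mki67 and Top2a, was 8192 to 14379 at P1 and 19223 to 25397 at P7. It was 650 to 1143 at P14 and 26.0 to 99.4 at P28. All 6 were called lower from P7 to P14, where 10.0% of all genes tested fell. Ptf1a, which specifies inhibitory neurons, averaged 26.8 ± 23.1 at P1 and 82.7 ± 30.0 at P7 and had no read at P14. Neurog1 averaged 17.9 ± 16.0 at P1 and 87.6 ± 40.9 at P7, and it too had no read at P14. Atoh1, the defining gene of granule neuron precursors, averaged 10.6 ± 9.2 at P1 and 36.4 ± 7.6 at P7 and had no read at P14 or P28. Not every precursor gene reached 0, since Barhl1, also of granule neuron precursors, averaged 54.9 ± 25.5 at P14. The proliferation list was higher in every P7 library than in every P1 library, whereas Dll1 and Dll3 had their higher means at P1. The part of these cells in the loss of Dll1 and Dll3 was not tested.

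**Figure D3:**
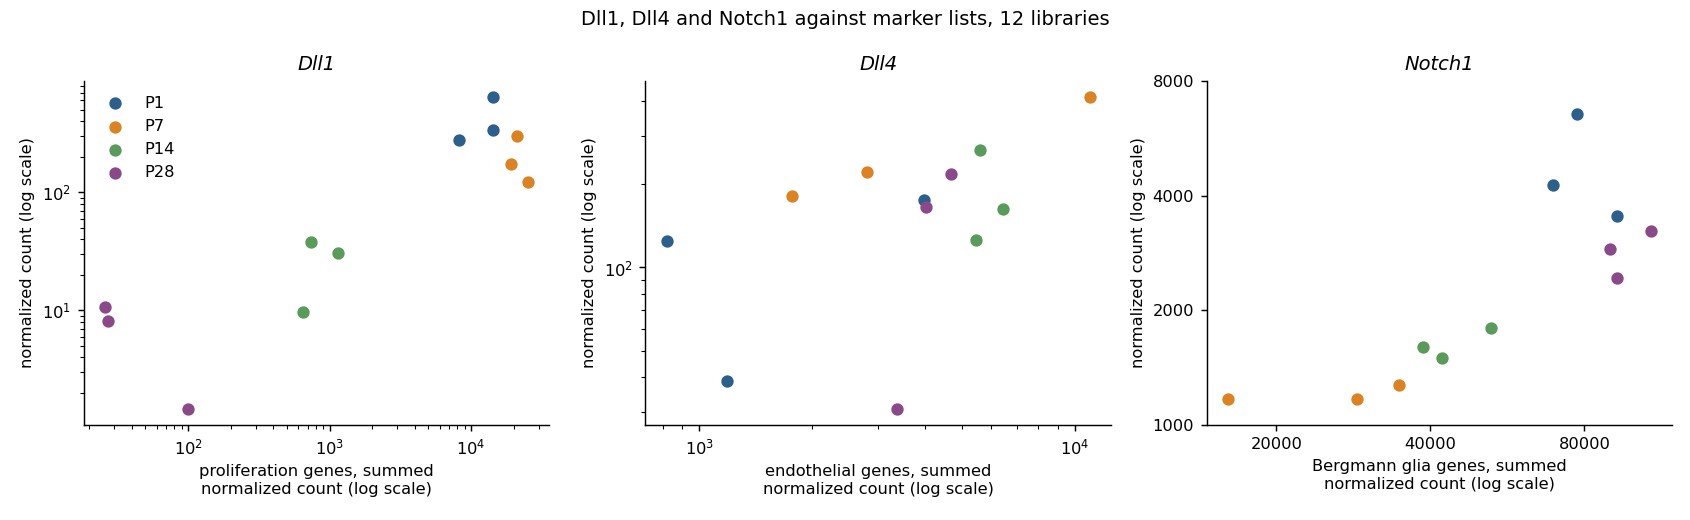
Normalised count of Dll1, Dll4 and Notch1 (vertical axes, log scale) against the summed normalised count of proliferation, endothelial and Bergmann glia genes (horizontal axes, log scale), with 1 point per library coloured by age. The Dll1 points of P1 and P7 lie at proliferation sums of 8192 and above, the highest Dll4 point is the P7 library with the highest endothelial sum (10970), and the P7 libraries have the lowest values of both Notch1 and the Bergmann glia sum.

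Dner (chr1:84369839-84696221, minus strand), a membrane protein with EGF-like repeats that lacks the DSL domain of the other ligands and is best known from Purkinje cells, had the most even replicates of all members. It was measured at 1652, 1399 and 1639 at P1, 611, 630 and 632 at P7, 485, 477 and 470 at P14, and 370, 390 and 492 at P28. The first 3 ages did not overlap, and the third P28 library lay just above the P14 libraries. Dner fell 2.49-fold from P1 to P7 (log2 fold change -1.32, SE 0.18, adjusted p = 0.000516) and was 3.76-fold below P1 at P28 (-1.91, SE 0.18, adjusted p = 2.9e-06). Its next difference, with means of 624 ± 11.1 and 477 ± 7.4, was -0.39 and did not pass (adjusted p = 0.165), although it did when libraries were scaled by their totals (adjusted p = 0.0190). From P14 to P28 the difference was -0.20 (adjusted p = 0.489). The summed count of 6 Purkinje cell genes, among them Pcp2 and Calb1, was 369 to 660 at P1 and 263 to 349 at P7. It was 789 to 1424 at P14 and 615 to 1891 at P28. From P1 to P28, 2 of the 6 rose and 2 fell, beside 14.6% and 20.0% of all genes. The part of Purkinje cell RNA in the Dner values was not tested.

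Rbpj (chr5:53466152-53657362, plus strand), which sits on Notch target genes and exchanges a corepressor for the receptor's intracellular domain, had its highest mean at P7, as Dll4 did. Its normalised counts were 959, 644 and 753 at P1, 1242, 1150 and 1230 at P7, 450, 756 and 518 at P14, and 646, 519 and 412 at P28. The P7 libraries all lay above those of every other age, and the other 3 ages overlapped. The difference from P1 to P7 was 0.64 (SE 0.24) and did not pass (adjusted p = 0.139), whereas with only these ages in the fit it did (adjusted p = 0.0297). From P7 to P14 Rbpj fell 2.15-fold (-1.10, SE 0.24, adjusted p = 0.00433). It then differed by -0.12 to P28 (adjusted p = 0.785), and by -0.58 between P1 and P28 (adjusted p = 0.0735), the latter being called with scaling by library totals (adjusted p = 0.00455) and without the first P28 library (adjusted p = 0.0344). The processed pseudogenes Rbpj-ps1 and Rbpj-ps3, on chromosomes 4 and 6, are not listed in the table, and how reads shared with such copies were counted is not stated.

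Dll4 (chr2:119325784-119335962, plus strand) is the Delta-like ligand of endothelial tip cells and arteries. It had 124, 176 and 38.6 normalised counts at P1, 221, 416 and 181 at P7, 126, 163 and 266 at P14, and 30.7, 165 and 219 at P28. All P7 libraries were above all P1 libraries, with the second P7 library the highest of the 12, and all other neighbouring ages overlapped. None of its differences passed, the one from P1 to P7 being 1.42 (SE 0.70, adjusted p = 0.297) and the later ones -0.54 and -0.75 (adjusted p = 0.667 and 0.506). The second P7 library also had the highest summed count of 9 endothelial genes, at 10970, against 2794 and 1767 in the other libraries of P7, 818, 3967 and 1189 at P1, 5453, 6442 and 5605 at P14 and 3373, 4007 and 4682 at P28. Among these genes Pecam1 averaged 178 ± 151 at P1 and 587 ± 604 at P7, and Cdh5 728 ± 598 and 963 ± 750. The part of endothelial RNA in the Dll4 values was not tested. The summed count of 8 mural cell genes, among them Pdgfrb and Rgs5, was, in order of age, 1345 to 3070, 1895 to 3887, 4288 to 4585 and 1366 to 3465, and it likewise had its highest P1 and P7 values in the second libraries. For Notch3, which mural cells also express, every P14 library lay below every P1 library, while for that list every P14 library lay above. At P7 and P28 the list overlapped its range at P1. Within it, Pdgfrb averaged 896 ± 243, 636 ± 244, 1112 ± 119 and 936 ± 224 in order of age. Rgs5 averaged 289 ± 282, 846 ± 327, 1380 ± 95.1 and 439 ± 167. The part of mural RNA in the Notch3 values was not tested.

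Jag1 (chr2:137081456-137116644, minus strand), a Jagged ligand, lay at 472, 221 and 369 normalised counts at P1, 227, 310 and 189 at P7, 192, 232 and 306 at P14, and 229, 97.9 and 208 at P28. Each age overlapped the next. Its largest difference was that between P1 and P28, -1.01 (SE 0.39), which missed the threshold (adjusted p = 0.0611) but passed it by DESeq2 (adjusted p = 0.0387), with scaling by totals (adjusted p = 0.0105), at the study's unadjusted threshold, and without the second P1 library (adjusted p = 0.0317) or the first or the third P28 library (adjusted p = 0.0348 and 0.0473). Jag2 (chr12:112907819-112929776, minus strand), its relative, was low and uneven, with 43.1, 89.3 and 42.4 at P1, 47.0, 148 and 57.4 at P7, 105, 31.7 and 165 at P14, and 55.5, 51.9 and 4.06 at P28. The third P28 library stood well below the others of that age, and no difference between ages passed, the widest being -1.75 from P14 to P28 (SE 0.91, adjusted p = 0.216). For Dll4, Jag1 and Jag2 the spread between libraries was therefore as large as most differences between ages, and an absence of change is not shown.

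Levels of different genes can be compared only per length, here as normalised counts per kilobase of exon in the GENCODE M21 annotation. At P1 the order of the mean levels was Notch1 (337 ± 111), Dner (327 ± 29.8), Notch2 (159 ± 68.2), Notch3 (155 ± 40.3), Dll1 (99.5 ± 47.1), Rbpj (61.6 ± 12.5), Jag1 (60.7 ± 21.7), Dll4 (29.3 ± 18.0), Dll3 (15.0 ± 7.2) and Jag2 (8.36 ± 3.9). Of these neighbours, Dner and Notch2 alone did not overlap between their libraries. At P7 the order was Dner (130 ± 2.3), Rbpj (94.7 ± 3.9), Notch1 (84.3 ± 4.2), Dll4 (70.9 ± 32.6), Notch2 (69.0 ± 7.8), Dll1 (47.2 ± 21.8), Notch3 (44.9 ± 13.2), Jag1 (41.5 ± 10.6), Jag2 (12.1 ± 8.0) and Dll3 (8.53 ± 1.1), with separate ranges between Dner and Rbpj, Rbpj and Notch1, and Jag1 and Jag2. Dner lay above every other ligand per length in all libraries of these ages.

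At P14 the levels per kilobase ran from Notch1 (114 ± 10.9) through Dner (99.8 ± 1.5), Notch2 (89.0 ± 21.2), Notch3 (52.7 ± 13.7), Dll4 (48.0 ± 18.8), Rbpj (45.1 ± 12.6), Jag1 (41.7 ± 10.0) and Jag2 (14.4 ± 9.6) to Dll1 (6.21 ± 3.5) and Dll3 (0.51 ± 0.88). Notch1 and Dner, Notch2 and Notch3, Jag1 and Jag2, and Dll1 and Dll3 were the neighbours with separate ranges. At P28 the order was Notch1 (200 ± 28.1), Notch2 (116 ± 18.5), Dner (87.3 ± 13.7), Notch3 (65.3 ± 18.7), Rbpj (41.2 ± 9.2), Dll4 (35.9 ± 25.2), Jag1 (30.6 ± 12.1), Jag2 (5.34 ± 4.1), Dll1 (1.60 ± 1.1) and Dll3 (0), with separate ranges between Notch1 and Notch2, Notch3 and Rbpj, Jag1 and Jag2, and Dll1 and Dll3. Dll1 was thus next to last at both later ages. Rbpj depends most on the length used, since its exons span 12750 bases together and 5485 in its longest transcript, and by the longest transcript it ranked 5, 1, 3 and 4 at the 4 ages rather than 6, 2, 6 and 5, passing Dll1 at P1. Reads can also be shared with overlapping genes, since the use of strand is not stated. A noncoding RNA on the opposite strand, A930024N18Rik, covers 20.6% of the exon bases of Dll1 and is not listed in the table, and Gm14207, opposite Dll4, did not exceed 4.31 normalised counts in any library.

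**Figure D4:**
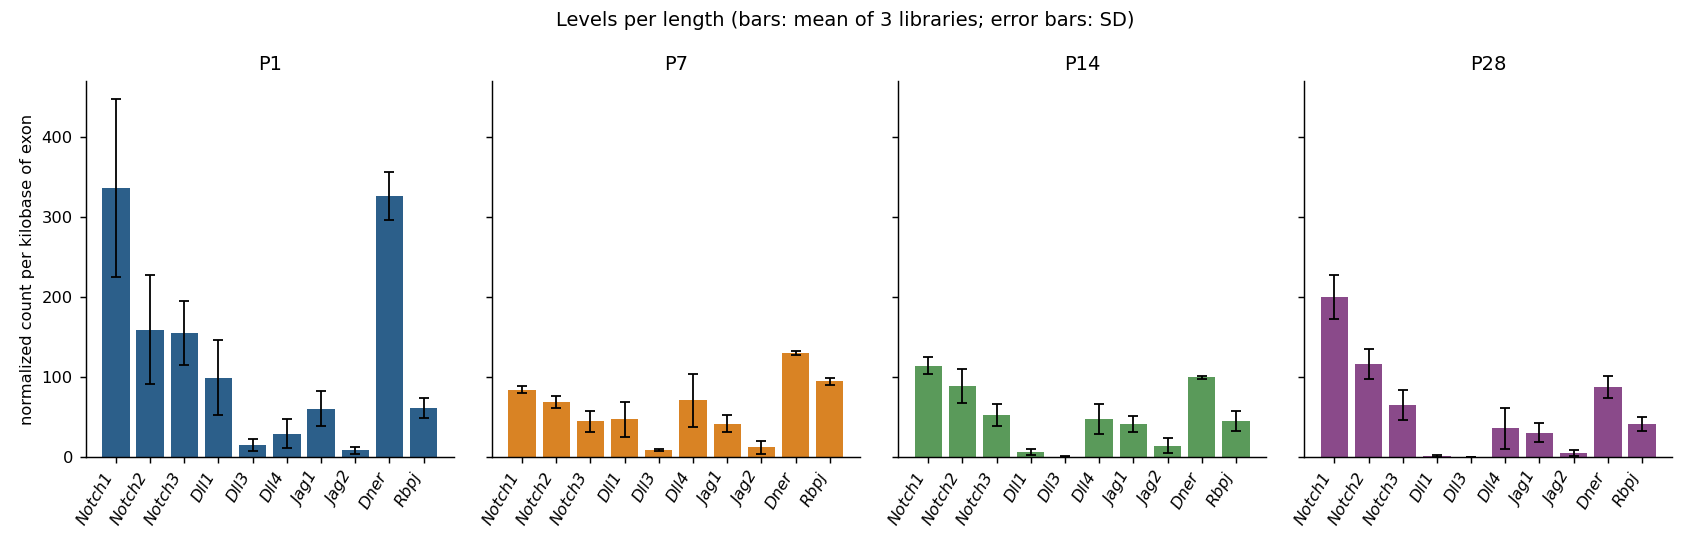
Mean normalised count per kilobase of exon (vertical axis, from 0, the same in all panels) of the 10 members at P1, P7, P14 and P28. Error bars are the SD of 3 libraries, and Notch1 and Dner stand above the other members at P1 while Dll1 and Dll3 are close to 0 at P14 and P28.

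Downstream of these members, 5 of 6 known target genes fell from P1 to P28, where 20.0% of all genes fell, 0 rose, and their median log2 fold change was -2.22 against -0.24 over all genes. These genes encode the Hes and Hey transcriptional repressors and Nrarp, a small protein that limits Notch signalling in turn. Windows of Hes5, Hey2 and Nrarp were searched, while Hes1, Hey1 and Heyl had no window in the promoter set and could not be. Those of Hes5 and Hey2 are shown because each holds 2 copies of GTGGGAA, the sequence that Rbpj is known to bind. That sequence occurs on either strand in 6.38% of all windows and at least 2 times in 84 of them (0.256%). The copies are in capitals, as TTCCCAC where they lie on the opposite strand, 226 and 83 bases before the start of Hes5 and 207 and 4 bases before that of Hey2. The window of Nrarp and the 12 windows of the members hold none, and the shorter TGGGAA, which is part of that motif and occurs in 25.6% of all windows, was found among the members in the windows of Rbpj.
Hes5, chr4:154960673-154960972, plus strand: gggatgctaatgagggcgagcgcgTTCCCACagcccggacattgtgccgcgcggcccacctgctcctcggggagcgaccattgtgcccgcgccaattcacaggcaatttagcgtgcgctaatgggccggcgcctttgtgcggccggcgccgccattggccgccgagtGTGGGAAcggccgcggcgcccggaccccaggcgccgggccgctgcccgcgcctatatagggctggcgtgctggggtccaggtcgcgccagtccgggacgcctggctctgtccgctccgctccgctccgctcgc
Hey2, chr10:30842734-30843033, minus strand: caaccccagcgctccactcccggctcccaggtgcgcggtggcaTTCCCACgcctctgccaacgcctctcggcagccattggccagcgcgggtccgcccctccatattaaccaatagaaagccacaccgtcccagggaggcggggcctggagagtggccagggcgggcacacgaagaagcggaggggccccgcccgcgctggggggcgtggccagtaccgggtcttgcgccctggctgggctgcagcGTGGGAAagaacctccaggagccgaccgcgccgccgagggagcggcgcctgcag

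Hes5, the target most closely tied to Notch activity in neural stem cells and glia, had 666, 530 and 399 normalised counts at P1, 97.9, 57.6 and 89.1 at P7, 48.7, 3.17 and 22.8 at P14, and 14.6, 0 and 2.71 at P28. Its libraries at P7 lay wholly below those at P1, and those at P14 below those at P7, yet no single step passed, with -2.69, -2.24 and -2.14 (adjusted p = 0.128, 0.132 and 0.162). From P1 to P28 Hes5 fell by 7.08 on the log2 scale (SE 0.99, adjusted p = 8.55e-05). Hey2, a relative that also marks vessels, had 417, 392 and 343 at P1 and 138, 73.3 and 107 at P7, and lay between 55.4 and 150 later. It fell from P1 to P7 (-1.89, SE 0.46, adjusted p = 0.0212) and was still lower at P28 (-2.18, adjusted p = 0.00231).

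Hes1 stepped down at every age without overlap, from 428, 339 and 336 at P1 to 260, 243 and 247 at P7, 222, 170 and 124 at P14 and 49.7, 113 and 75.7 at P28. The last step passed (-1.14, SE 0.36, adjusted p = 0.0489), as did the whole interval (-2.26, adjusted p = 0.000282). Nrarp had 499, 398 and 344 at P1, 158, 149 and 119 at P7, 220, 143 and 138 at P14, and 16.1, 0 and 36.5 at P28, and it fell from P14 to P28 (-4.25, SE 0.94, adjusted p = 0.00913). The Notch1 RNA rose in that same step. Heyl fell from P1 to P28 (-1.50, SE 0.54, adjusted p = 0.0428), with 1 high library at P14 (396 against 104 and 214). Hey1 was not called in any comparison, and at P28 it averaged 622 ± 275 beside 639 ± 107 at P1.

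**Figure D5:**
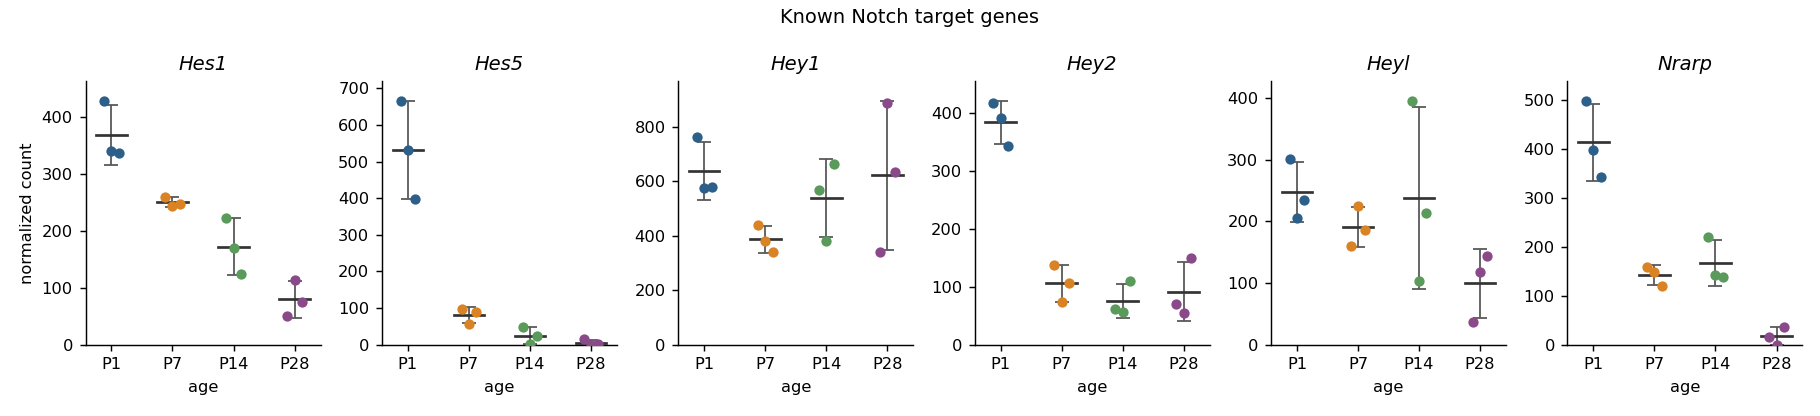
Normalised count (vertical axis, from 0, a separate scale for each gene) of 6 known Notch target genes by postnatal age. Points are libraries, lines the mean of 3 and error bars the SD, and Hes1, Hes5 and Nrarp have their lowest means at P28 (79.5, 5.77 and 17.5) whereas Hey1 does not.

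Among the 54 other pathway genes, all of them tested, 2 rose and 5 fell from P1 to P7, 6 rose and 3 fell from P7 to P14, 3 rose and 6 fell from P14 to P28, and 7 rose and 12 fell from P1 to P28. Over all genes tested the shares that rose and fell were 3.47% and 4.24%, 10.8% and 10.0%, 5.68% and 8.76%, and 14.6% and 20.0%. The 54 include Notch4 and the 6 target genes described above, and 5 of the 12 falls from P1 to P28 were those of target genes. The median log2 fold changes of the pathway genes were -0.23, 0.15, -0.018 and -0.014, beside 0.037, -0.086, -0.12 and -0.24 over all genes. Of the 5 genes that add sugars to the receptors, Lfng, a fringe enzyme that tunes the response to Delta-like and Jagged ligands, was called in 2 steps. It had 2086, 2628 and 2428 normalised counts at P1, 821, 325 and 651 at P7, 2272, 2846 and 1830 at P14 and 2170, 3044 and 2360 at P28. The P7 libraries were below all others, with a fall of 2.08 on the log2 scale into P7 (adjusted p = 0.000459) and a rise of 2.03 out of it (adjusted p = 0.000147). Mfng, another fringe gene, fell from P14 to P28 (-3.81, adjusted p = 0.0387), from 61.4, 102 and 43.4 to 1.46, 41.3 and 0.

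Of the 10 genes for receptor cutting, 1 rose in the first step, where 3.47% of all genes rose. None was called in the steps after it, where 10.8% and 5.68% of all genes rose and 10.0% and 8.76% fell. Adam10, the main protease of the first cut, rose from 928 ± 32.5 to 1459 ± 71.2 (0.65, SE 0.15, adjusted p = 0.0149). Over the whole interval the related protease Adam17 was higher at P28 (0.69, adjusted p = 0.0301) and Ncstn, a subunit of gamma-secretase, was lower (-0.98, adjusted p = 0.0217). Of the 6 genes for ligand endocytosis, Epn2, an endocytic adaptor, rose from P7 to P14 (1.51, SE 0.20, adjusted p = 0.000109). Mib1, the ubiquitin ligase that marks ligands for uptake, fell in that step (-0.93, adjusted p = 0.00511) and rose in the next (0.70, adjusted p = 0.0366), its means being 1282, 1081, 566 and 931 at the 4 ages. Epn1, another adaptor, was called higher at P28 than at P1 (1.45, adjusted p = 0.0432), but its P28 libraries had 640, 313 and 2396 normalised counts and overlapped those of P1.

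Of the 7 proteins described as non-canonical ligands, the contactin Cntn1 rose in both later steps. Its normalised counts were 2980, 2621 and 3215 at P1, 2350, 2674 and 2456 at P7, 4518, 5332 and 5262 at P14, and 9712, 9506 and 9516 at P28, with steps of 1.01 (adjusted p = 8.92e-05) and 0.93 (adjusted p = 0.000771) after P7. Cntn6, its relative, rose from P7 to P14 (3.03, SE 0.71, adjusted p = 0.00726). Dlk1, a Delta-like protein without the DSL domain, went the other way, with 249, 442 and 111 at P1, 19.9, 36.6 and 15.5 at P7, 26.5, 3.17 and 18.5 at P14 and no read at P28, which is at least 66.9-fold below P1. Dlk2 also had no read at P28, at least 6.05-fold below P14, where 1 library had 63.0 normalised counts and the others 5.30 and 4.23. Mfap2, a microfibril protein, was called lower at P28 than at P1 (-5.93, adjusted p = 0.00256), although 1 P28 library had 137 normalised counts and the others 0 and 1.18.

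Of the 8 genes for receptor turnover, the ubiquitin ligase Dtx4 fell from P1 to P7 (-1.89, SE 0.29, adjusted p = 0.00121) and stayed lower at P28 (-1.80, adjusted p = 0.000305). Its relative Dtx3 rose from P7 to P14 (1.22, adjusted p = 0.00442), and Dtx2 was lower at P28 than at P1 (-1.72, adjusted p = 0.0469). Of the 11 genes whose products join Rbpj in the nucleus, the coactivators Maml2 and Maml3 moved in opposite directions from P1 to P7, Maml2 falling (-1.19, SE 0.21, adjusted p = 0.00338) and Maml3 rising (1.03, SE 0.27, adjusted p = 0.0333). Maml2 rose again from P14 to P28 (0.93, adjusted p = 0.0117), with means of 1745, 749, 905 and 1732 at the 4 ages. Kat2b, an acetyltransferase, rose from P7 to P14 (0.94, adjusted p = 0.0233), and Kdm5a, a histone demethylase, fell (-0.65, adjusted p = 0.0214).

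The genes whose log2 values were most like those of each member over the 12 libraries were sought among 10208 genes with a mean of at least 100. The libraries of an age share that age, so that these coefficients describe the likeness and carry no test. Notch1 was most like Adgrb2 (Pearson r = 0.968), Lrp4 (0.951) and Aldh1l1 (0.942), the gene whose promoter drives the sorted GFP. Aldh1l1 averaged, in order of age, 5008 ± 1320, 1470 ± 525, 1879 ± 86.1 and 2921 ± 446. Notch2 was most like Fat1 (0.914), Maml2 (0.871) and Notch1 (0.870), and Notch3 most like Sorcs2 (0.950), Lifr (0.945) and Gdpd2 (0.942). Dner was most like Fat4 (0.977), Ncan (0.957) and Nes (0.952), of which Nes encodes the progenitor filament nestin.

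Dll1 was most like Prrc2c (0.978), Fam169a (0.971) and an entry whose symbol had been turned into a date (0.971), and Dll3, compared with 10209 genes, most like Ybx1 (0.985), D930015E06Rik (0.960) and Satb1 (0.958). Dll4 had a weaker best likeness, with Cald1 (0.861), Cog7 (0.844) and Mef2c (0.840). Jag1 was most like Epm2aip1 (0.877), Epha3 (0.842) and Cxcr4 (0.840), and Jag2 most like 4933409K07Rik (0.910), Ppfibp1 (0.898) and Zfp691 (0.891). Rbpj was most like Dennd5b (0.943), Rad23b (0.943) and Ahctf1 (0.941).

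The 3 receptors were lowest where the summed count of 5 Bergmann glia genes was lowest. In order of age that sum was 69537 to 92568, 16103 to 34697, 38620 to 52524 and 89708 to 108069, and its part in the receptor values was not tested. The list is not uniform. Gdf10 averaged 1058 ± 667 at P1, 1387 ± 450 at P7 and 12855 ± 1281 at P28. Hopx averaged 209 ± 101, 304 ± 114 and 4853 ± 1490 at these ages, so that neither was lowest at P7. The largest part of the sum at each age was Ptprz1. In order of age it averaged 58651 ± 9609, 17979 ± 6883, 23276 ± 3044 and 55311 ± 4698. The astrocyte gene Slc1a3 averaged 16707 ± 3878, 10471 ± 3157, 59641 ± 11272 and 121507 ± 12639. Markers of other cell types moved too. Oligodendrocyte precursor genes, among them Pdgfra and Cspg4, summed to 7309 to 11489 at P1 and 3750 to 4614 at P7. They then summed to 7402 to 8509 at P14 and 2461 to 2988 at P28. In order of age Pdgfra averaged 3646 ± 978, 1281 ± 65.6, 720 ± 91 and 353 ± 122. Cspg4 averaged 614 ± 83.3, 176 ± 51.5, 181 ± 59.1 and 85.0 ± 108. The higher sum at P14 than at P7 therefore came from other genes of the list. Granule neuron genes, among them Gabra6 and Cbln3, summed to 960 to 1224 at P1 and 1872 to 3097 at P7. Later sums were 9884 to 19644 at P14 and 6730 to 8551 at P28. Gabra6 had no read at P1 and averaged 37.3 ± 21.3 at P7, and Cbln3 averaged 17.2 ± 3.1 and 41.2 ± 9.3. Other genes of the list thus made up most of the sums at P1 and P7. Granule neuron precursor genes, among them Barhl1, summed to 181 to 463 at P1 and 970 to 1096 at P7. They summed to 45.6 to 134 at P14 and 2.92 to 92.0 at P28. Barhl1 itself averaged 45.5 ± 6.7, 216 ± 71.5, 54.9 ± 25.5 and 1.97 ± 3.4 in order of age. Microglia genes, among them Cx3cr1 and P2ry12, summed to 449 to 1081 at P1 and 969 to 1437 at P7. Their sums were 1788 to 2775 at P14 and 1317 to 1798 at P28. Choroid plexus genes, among them Ttr and Kl, differed most between libraries of an age, from 1347 to 110490 at P14.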

How the data were processed

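RNA of GFP-sorted cerebellar cells was measured in 12 libraries made with the Trio kit (from total RNA per the extract protocol and the paper, while the labels give polyA RNA as the molecule) and sequenced in pairs. Reads were mapped by the authors to mm10 with STAR (version 2.5.0a in the submitters' processing notes) and counted per gene on UCSC transcripts with GenomicAlignments and GenomicFeatures, and the counts were normalised with DESeq2 (version 1.30.1 in those notes). The deposited values are a signal on the scale of normalised counts, each library having been divided by 1 size factor of its own. Every value was a whole multiple of its library's smallest one, so that 100% of the values could be turned back into whole reads (tolerance 0.02 reads). Columns were matched to libraries through the names in the labels, with 0 left over. All column names carry P28, so the ages rest on the labels. How shared reads were counted, and whether strand was used, is not given in the sources used here.

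Ages were compared by limma (version 3.58.1 in R 4.3.3) after taking log2(value + 1), with 1 mean per age, 1 fit over 12 libraries and a variance trend. Genes entered when 3 or more libraries had a value of 10 or more, which left 15464. The alternatives were pseudocounts of 0.1 and 10, no filter (20205 genes), a minimum of 10 reads in each library (10911 genes), scaling by library totals or TMM, edgeR (version 4.0.16) and DESeq2 (version 1.42.0) on the recovered reads (15575 and 20205 genes), only the ages compared, the replicate number as a block, an unadjusted p under 0.05 with a log2 fold change over 0.75, and each library left out. The scripts were tested on simulated data. Pairs of libraries of an age correlated at 0.849 to 0.965 on the log2 scale and differed by more than counting noise (chi-square per degree of freedom 9.57 to 72.9), so that none was counted as a duplicate. Intervals and floors cover counting error only.

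The members, the pathway and marker lists, and the tests were chosen with earlier results of these data known. Named are the 10 members, the target genes and Notch4, for each other pathway list the 2 called genes with the largest change in each comparison, the leading 2 genes of each marker list, and the 3 genes most like each member. Results of a marker gene, and of the list that holds it, are not reported here. Neurog1 and Ptprz1 are outside this rule and were named after their values were seen. Coordinates and lengths come from GENCODE M21 on GRCm38, the build of mm10, and promoter windows from RefSeq (GRCm38.p6), which held all 10 members. The depth per library ranged from 6399499 to 14733985 reads.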

Additional observations from a re-analysis of the deposited data

How the results depend on the processing

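Of 908 values of single genes recomputed under the alternatives, 863 kept their direction and their side of the threshold, 11 lost a call, 15 gained one and 19 changed sign or came to 0, none of which had been called. Counts of members called that moved by over 1.5 times were those from P7 to P14 (3), which was 1 with a minimum of 10 reads per library, from P14 to P28 (1), which was 0 with scaling by totals, 2 by DESeq2 and 2 with the threshold of the study, and from P1 to P28 (5), which was 3 with a minimum of 10 reads per library and 8 with scaling by totals. That filter tests fewer genes and drops Dll1, Dll3 and Jag2. The cause of the other moves was not tested. Of the other pathway genes, 13 rather than 7 were called from P1 to P7, 2 rather than 9 from P14 to P28 and 12 rather than 19 from P1 to P28 when only the ages compared were fitted, and from P14 to P28 it was 5 with a pseudocount of 10 and 4 with a minimum of 10 reads per library.

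With each library left out in turn, the members called numbered 3 to 4, 2 to 3, 0 to 2 and 4 to 6 in the 4 comparisons and 6 to 7 over all ages, and the other pathway genes 3 to 8, 6 to 12, 4 to 10 and 12 to 22. In the step from P14 to P28 the count of 0 members came without the first or the third P14 library and that of 2 without the second P28 library. The 3 pathway genes left from P1 to P7 came without the first P1, the second P7 or the third P7 library.

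Signs changed with scaling by totals for Notch3 from P7 to P14 (-0.019), Dll4 from P1 to P28 (-0.30), Jag1 from P7 to P14 (-0.25) and Jag2 from P7 to P14 (-0.099). With each library left out, Dll3 from P14 to P28 came to 0 without P14 replicate 3 (-1.21 to 0.00), and signs changed for Dll4 from P14 to P28 (-1.29 to 0.11) and P1 to P28 (-0.50 to 1.00), Jag1 from P7 to P14 (-0.17 to 0.20), Jag2 from P1 to P7 (-0.074 to 0.77) and P7 to P14 (-0.34 to 0.83), and Rbpj from P14 to P28 (-0.28 to 0.099).

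The labels number the replicates 1 to 3 at each age. The deviations of same-numbered libraries correlated at -0.029 to 0.139 over 18 pairs, with 1 above 0.1 and a median of 0.0314. Those of differently numbered libraries correlated at -0.105 to 0.0536 over 36 pairs, with a median of -0.0112. These correlations are weak, and whether the numbers pair the libraries was not tested. With the replicate number as a block the counts of members called were 4, 3, 1 and 5, as without it, and those of other pathway genes 7, 8, 8 and 19 rather than 7, 9, 9 and 19. Of the 12 libraries, 9 correlated best with a library of their own number, although same-numbered pairs were the fewer (18 beside 36). The main fit takes no account of any pairing. A count of 0 allows up to 3 reads per library, which limits Dll3 at P14 and P28. Dll1 had no library at 0, but it rested on 74 reads at P14 and 16 at P28.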
